A study of Mus musculus with 4 samples.

Results

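The genes described here are 41 genes of DNA damage repair and checkpoint control, chosen by symbol from a fixed list and not by their values. All 41 were among the 11603 genes listed for these libraries, and no further filter on low values was applied. They were followed in muscle stem cells, the resident precursors that rebuild muscle, which were sorted from hindlimbs of C57BL/6 males 4 to 5 months old. The tested libraries, 2 in number, carry a conditional knockout of Hairless (Hr), a nuclear corepressor, and 2 further libraries are labelled as control. The sorting gate was VCAM1+/CD31-/CD45-/Sca1-, and 10 ng of total RNA was reverse transcribed for each library. The promoter that drives the recombinase, the Hr alleles, any inducing agent and the genotype of the controls are unstated in the sources used here. No label says whether the libraries of a group came from separate mice, so a p-value here weighs differences only against library-to-library spread, which may be technical.

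DNA breaks and stalled replication forks are sensed by kinases of the ATM, ATR and DNA-PK family, which halt the cell cycle through the checkpoint kinases CHK1 and CHK2 and mark the chromatin around the lesion. Breaks through both strands are then rejoined directly, by end joining, or copied from the sister chromatid, by homologous recombination, which operates mainly after replication. Crosslinks, mismatched bases, damaged bases and bulky adducts have pathways of their own. Muscle stem cells are mostly out of the cell cycle, a state in which end joining is available and the sister chromatid is not.

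Libraries held 34101213 and 21757211 reads on the listed genes in knockout and 26990809 and 22577330 reads in control. Values are RPKM, reads scaled by exon length and by library size, and can be compared between genes. Hr itself, at chromosome 14, 70552212 to 70573548 of mm10, was listed at 7.15 and 7.90 RPKM in knockout, against 9.28 and 8.94 RPKM in control. The transcript was not lost and its difference did not pass the test (log2 fold change -0.26, SE 0.16, limma adjusted p = 0.431), so each direction below rests on the labels. All 10 stem cell markers were listed, with a summed level of 3965 and 4221 RPKM in knockout and 3023 and 2483 RPKM in control. Of these markers 6 had a higher and 4 a lower mean in knockout, with a median log2 fold change of 0.03. The most abundant, at a mean of 2498 RPKM, weighs most in the sum. Blood cell markers summed to 12.5 and 19.5 RPKM in knockout and 17.0 and 16.9 RPKM in control, with Ptprc, which encodes CD45, at or below 0.0399 RPKM in every library. Of 18 muscle fibre markers 14 were listed, and all 14 had a lower mean in knockout, with a median log2 fold change of -1.44 and 0 limma calls. They summed to 115 and 93.2 RPKM in knockout and to 229 and 847 RPKM in control, so both controls were higher and control 2 stood apart. Ly6a, which encodes Sca1, had 77.4 and 80.7 RPKM in knockout and 47.9 and 49.5 RPKM in control, although the gate excluded Sca1. It is 1 of 8 fibro-adipogenic cell markers listed, of which 3 had a higher and 5 a lower mean in knockout. Those 8 markers summed to 1491 and 1193 RPKM in knockout and 1573 and 1399 RPKM in control. Smooth muscle and pericyte markers, 4 higher and 4 lower in mean, summed to 306 and 401 RPKM in knockout and 527 and 739 RPKM in control. Endothelial markers, 3 higher and 7 lower in mean, summed to 60.5 and 104 RPKM in knockout and 82.8 and 111 RPKM in control.

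Repair and checkpoint transcripts leaned to lower values in the knockout, with exceptions among scarce and abundant genes. Of the 41 genes, 30 had a lower and 11 a higher mean in knockout than in control, and the median log2 fold change was -0.15, beside -0.01 for all 11603 genes. On the log2(RPKM + 0.5) scale, the changes ran from -0.67 for Chek2, a checkpoint kinase, to 0.49 for Mdc1, a scaffold at breaks. None passed limma over all genes, with adjusted p values of 0.200 to 0.957, where limma called 0% of all genes higher and 0.00862% lower, and limma-voom on recovered reads also called 0 of the 41. At an unadjusted p under 0.05, limma counted 8 of the 41 genes lower and 2 higher, against 7.69% and 10.3% of all genes. In the authors' deposited table, 5 of the 41 genes had a q-value under 0.05 and were lower, and 1 was higher, beside 4.26% and 3.59% of all genes (7.84% either way). The 5 were Brca1, Chek2, Rad54l, Topbp1 and Parp1, and the 1 was Mdc1. Both knockout libraries lay below both controls for 21 genes and above both for 6, beside 26.2% and 25.0% of all genes. As shares of the 41 genes these are 51.2% and 14.6%, and the 27 together are 65.9%, beside 51.2% of all genes. Bulk values cannot tell fewer cells that make a transcript from less of it per cell.

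The lean depended on how the libraries were scaled and on single libraries. With each library scaled by its listed reads, the median of all genes moved to -0.20 and that of the 41 genes to -0.29, and 35 of the 41 genes were lower (85.4%) beside 73.6% of all genes. Without control 1 the median of the 41 genes was -0.23, with 33 lower and 8 higher. Without knockout 1 it was -0.20, with 24 lower and 17 higher.

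**Figure D1:**
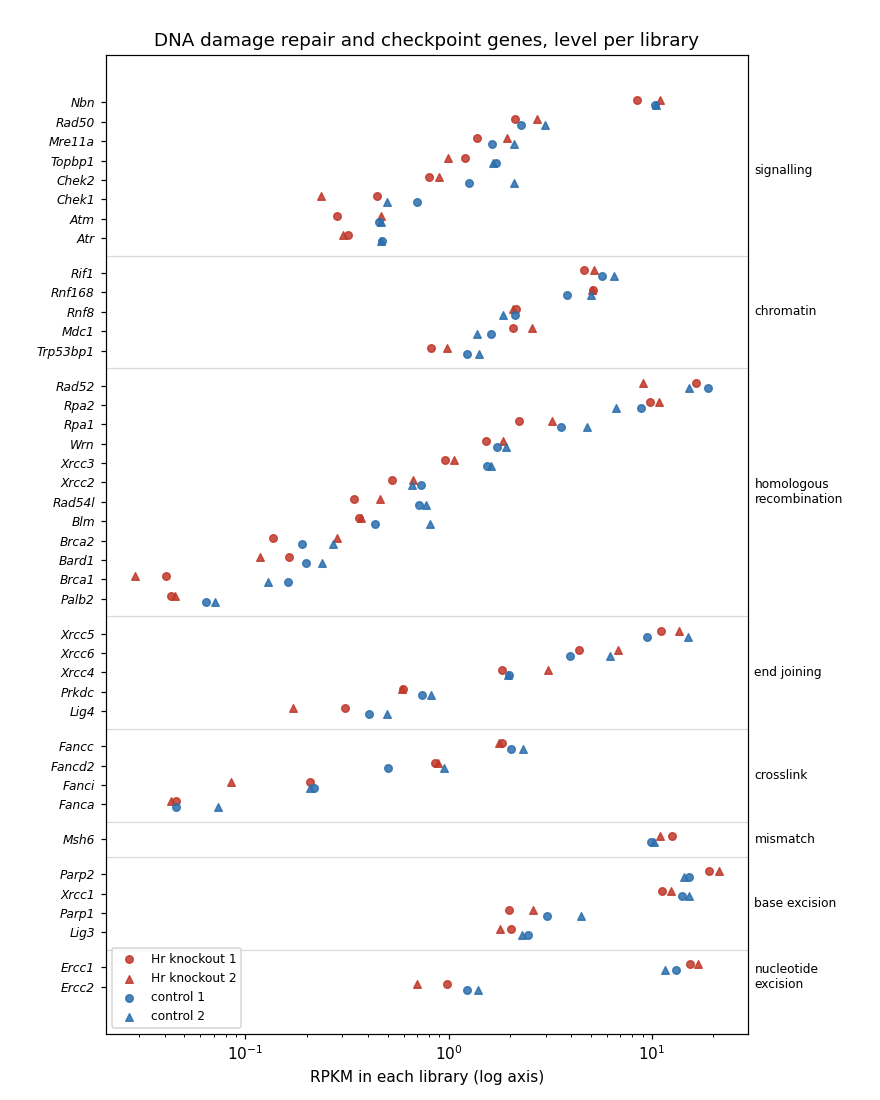
Level of each repair and checkpoint gene in RPKM (log axis) in each library, with genes grouped by pathway and ordered by mean level within it; red marks are knockout and blue marks control libraries, circles replicate 1 and triangles replicate 2. Levels run from below 0.1 RPKM for Palb2 and Fanca to about 20 RPKM for Parp2. Red and blue marks separate for 27 of the 41 genes (65.9%), beside 51.2% of all genes.

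Promoters of Chek2, Topbp1 and Mdc1 are shown because these genes are among the 6 with a q-value under 0.05 in the authors' deposited table and their windows hold an E2F-type site, the sequence bound by the factors that switch on S-phase genes. Each window runs from 250 bases before to 50 bases after the RefSeq start (GRCm38.p6, plus strand, 5′ to 3′), and capitals mark the site.
Chek2, chr5:110839733-110840032: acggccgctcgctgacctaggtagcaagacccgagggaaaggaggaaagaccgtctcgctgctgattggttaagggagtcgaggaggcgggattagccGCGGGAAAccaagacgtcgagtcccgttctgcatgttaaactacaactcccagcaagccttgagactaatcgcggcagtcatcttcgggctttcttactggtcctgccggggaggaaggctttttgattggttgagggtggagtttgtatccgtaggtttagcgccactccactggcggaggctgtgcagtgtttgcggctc
Topbp1, chr9:103305077-103305376: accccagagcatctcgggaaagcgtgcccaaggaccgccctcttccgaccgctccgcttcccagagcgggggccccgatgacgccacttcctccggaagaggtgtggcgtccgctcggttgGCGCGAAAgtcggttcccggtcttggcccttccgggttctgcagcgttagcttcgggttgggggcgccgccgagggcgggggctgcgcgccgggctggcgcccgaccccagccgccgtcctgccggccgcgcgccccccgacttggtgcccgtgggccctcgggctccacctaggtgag
Mdc1, chr17:35841248-35841547: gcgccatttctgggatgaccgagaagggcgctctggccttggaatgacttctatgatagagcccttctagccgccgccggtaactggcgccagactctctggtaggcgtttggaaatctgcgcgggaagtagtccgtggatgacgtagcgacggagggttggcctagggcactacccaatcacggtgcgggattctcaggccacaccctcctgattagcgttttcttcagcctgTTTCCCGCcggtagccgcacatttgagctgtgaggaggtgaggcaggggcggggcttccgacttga
The words searched were TTTCCCGC, TTTCGCGC, TTTGCCGC and TTTGGCGC on both strands. A match was found in 7 of 36 promoter windows of 34 of the 41 genes (19.4%), against 2.26% of all 32851 RefSeq windows and 4.03% of the 11927 windows of genes in the table. The 7 genes did not share a direction. Bard1, Chek2 and Topbp1 had both knockout libraries below both controls, Mdc1 and Msh6 had both above, and Brca2 and Xrcc6 overlapped. No match lay in the windows of Brca1, Rad54l or Parp1, which says only that these letters are not in these windows.

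All 8 genes of damage signalling and checkpoint control had a lower mean in knockout, and 0 passed limma over all genes (adjusted p 0.225 to 0.825). Atm, Mre11a, Rad50 and Nbn turned higher when a library was left out. The median log2 fold change was -0.20, against -0.37 with a pseudocount of 0.1 and -0.49 with limma-voom. Chek2 (chromosome 5, 110839979 to 110874145) encodes the kinase CHK2, which ATM activates at breaks. It had 0.80 and 0.893 RPKM in knockout, from 62 and 44 reads, against 1.26 and 2.11 RPKM in control, from 88 and 132 reads. The groups did not overlap, and control 2 stood highest. Its mean was 0.846 ± 0.0653 RPKM in knockout and 1.69 ± 0.596 RPKM in control (SD, n = 2 each), a log2 fold change of -0.67 with SE 0.22, limma adjusted p = 0.225, and a q-value of 0.00907 in the authors' deposited table. Without control 2 the log2 fold change was -0.39. Topbp1 (chromosome 9, 103305215 to 103350428), which activates ATR at stalled forks, had 1.2 and 0.991 RPKM in knockout, against 1.70 and 1.65 RPKM in control. The control libraries lay close together and both knockout libraries below them (log2 fold change -0.45, SE 0.16, limma adjusted p = 0.238, and a q-value of 0.0341 in the authors' deposited table).

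The kinase genes Atr and Chek1 showed the same order at lower levels. Atr, the kinase of replication stress, had 0.320 and 0.301 RPKM in knockout and 0.470 and 0.465 RPKM in control, and Chek1, its target kinase, had 0.443 and 0.236 RPKM in knockout and 0.698 and 0.496 RPKM in control. Neither passed limma (adjusted p = 0.320 for Atr and 0.321 for Chek1). Atm, the kinase of broken ends, had 0.281 and 0.465 RPKM in knockout and 0.455 and 0.463 RPKM in control, so that knockout 2 matched the controls. The MRN complex, which holds and trims broken ends, overlapped between the groups in all its genes. Nbn, its regulatory subunit and the most abundant gene of the signalling group, had 8.41 and 11 RPKM in knockout and 10.4 and 10.5 RPKM in control. Rad50, the ATPase subunit, had 2.12 and 2.71 RPKM in knockout and 2.28 and 2.99 RPKM in control, and Mre11a, the nuclease, had 1.38 and 1.93 RPKM in knockout and 1.64 and 2.09 RPKM in control. The 95% confidence interval of the log2 fold change was -0.57 to 0.34 for Nbn, -0.62 to 0.41 for Rad50 and -0.65 to 0.37 for Mre11a.

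Genes that act on chromatin at breaks pointed both ways, with 3 of 5 higher and 2 lower in mean, though Rnf8 and Rnf168 were lower when scaled by reads listed. Their median log2 fold change was 0.06, with 0 limma calls. Mdc1 (chromosome 17, 35841515 to 35859670), which binds the phosphorylated histone H2AX and recruits the ubiquitin ligases, had 2.08 and 2.56 RPKM in knockout, against 1.61 and 1.38 RPKM in control. Its mean was 2.32 ± 0.341 RPKM in knockout and 1.5 ± 0.161 RPKM in control (SD, n = 2 each), 1.55-fold higher, with a log2 fold change of 0.49, SE 0.18, limma adjusted p = 0.242 and a q-value of 0.0462 in the authors' deposited table. Trp53bp1, the reader that directs breaks to end joining, stood the other way, with 0.823 and 0.980 RPKM in knockout and 1.23 and 1.41 RPKM in control (log2 fold change -0.38, SE 0.15, limma adjusted p = 0.283). Rif1, its effector, was the most abundant of the group at 4.62 and 5.20 RPKM in knockout and 5.66 and 6.50 RPKM in control (log2 fold change -0.28, SE 0.17, limma adjusted p = 0.443). The ligase gene Rnf168 had 5.16 and 5.05 RPKM in knockout and 3.82 and 5.00 RPKM in control, and Rnf8, the ligase before it, had 2.13 and 2.07 RPKM in knockout and 2.13 and 1.85 RPKM in control. For Rnf168 the gap between knockout 2 and control 2 was smaller than the gap between the controls.

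Of the 12 genes of homologous recombination, 7 were separated lower and 1 higher, beside 26.2% and 25.0% of all genes, with 0 limma calls. The 12 genes are scarce, with a median level of 0.608 RPKM. Of all listed genes under 1 RPKM, 36.3% were separated lower and 10.3% higher. The median log2 fold change of the 12 genes was -0.22, against -0.43 with a pseudocount of 0.1 and -0.57 with limma-voom. Brca1 (chromosome 11, 101488764 to 101551955), the tumour suppressor that promotes recombination, had 0.0408 and 0.0285 RPKM in knockout, against 0.162 and 0.129 RPKM in control. These levels rest on 9 and 4 reads in knockout and 32 and 23 reads in control. The mean was 0.0347 ± 0.00871 RPKM in knockout and 0.145 ± 0.0230 RPKM in control (SD, n = 2 each), 4.19-fold lower. Because the pseudocount outweighs such levels, the log2 fold change was only -0.27, with SE 0.10 and limma adjusted p = 0.253, while the q-value in the authors' deposited table was 0.000553.

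Partners of BRCA1 were also below 1 RPKM in every library. Bard1, its partner in the ligase, had 0.164 and 0.118 RPKM in knockout and 0.198 and 0.237 RPKM in control. Palb2, the bridge to BRCA2, had 0.0428 and 0.0449 RPKM in knockout and 0.0636 and 0.0707 RPKM in control, from at most 8 reads a library. Brca2, a tumour suppressor gene of the same pathway, had 0.136 and 0.281 RPKM in knockout and 0.190 and 0.270 RPKM in control, and its groups overlapped.

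Rad54l (chromosome 4, 116094264 to 116123690), the motor protein that aids strand invasion, had the smallest limma p of the 41 genes. It had 0.342 and 0.458 RPKM in knockout, from 68 and 58 reads, against 0.711 and 0.771 RPKM in control, from 127 and 124 reads. Both knockout values lay well below both controls, at means of 0.40 ± 0.0823 RPKM in knockout and 0.741 ± 0.0426 RPKM in control (SD, n = 2 each), a log2 fold change of -0.47 with SE 0.14, limma adjusted p = 0.200, and a q-value of 0.0158 in the authors' deposited table. Of its exon bases, 15.4% overlap Lrrc41 on the other strand, and whether reads were counted by strand is unstated in the sources used here. Xrcc3, which acts in strand exchange, had 0.958 and 1.06 RPKM in knockout and 1.55 and 1.62 RPKM in control (log2 fold change -0.47, SE 0.15, limma adjusted p = 0.216). Xrcc2, which acts at the same stage, overlapped, with 0.527 and 0.665 RPKM in knockout and 0.728 and 0.661 RPKM in control.

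The subunit genes Rpa1 and Rpa2 of the single-strand binding protein RPA differed in opposite directions. Rpa1, the large subunit, had 2.23 and 3.23 RPKM in knockout and 3.57 and 4.80 RPKM in control (log2 fold change -0.54, SE 0.24, limma adjusted p = 0.308). Rpa2, another subunit, had 9.83 and 10.9 RPKM in knockout and 8.82 and 6.64 RPKM in control (log2 fold change 0.41, SE 0.19, limma adjusted p = 0.330). Among the helicases, Blm had 0.360 and 0.369 RPKM in knockout and 0.436 and 0.814 RPKM in control, and Wrn overlapped, with 1.52 and 1.84 RPKM in knockout and 1.73 and 1.92 RPKM in control. Rad52, a strand annealing protein and the most abundant gene of the group, had 16.6 and 9.05 RPKM in knockout and 18.9 and 15.2 RPKM in control. Knockout 2 alone stood low and knockout 1 lay between the controls (log2 fold change -0.45, SE 0.30, limma adjusted p = 0.474).

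End joining showed no common direction, with 3 of 5 genes higher and 2 lower in mean and 0 limma calls, though Xrcc5 and Xrcc6 were lower when scaled by reads listed. The genes of the Ku dimer, which caps broken ends, varied more between replicates than between groups. Xrcc5 had 11.1 and 13.6 RPKM in knockout and 9.49 and 15.0 RPKM in control, and Xrcc6 had 4.37 and 6.80 RPKM in knockout and 3.97 and 6.21 RPKM in control. The 95% confidence interval of the log2 fold change was -0.59 to 0.66 for Xrcc5 and -0.60 to 0.85 for Xrcc6, so changes within those bounds are not excluded. Prkdc, the DNA-PK kinase that Ku recruits, was far scarcer at 0.596 and 0.591 RPKM in knockout and 0.742 and 0.817 RPKM in control (log2 fold change -0.23, SE 0.13, limma adjusted p = 0.416). Lig4, the ligase of the pathway, had 0.309 and 0.172 RPKM in knockout, from 34 and 12 reads, and 0.405 and 0.495 RPKM in control, from 40 and 44 reads (log2 fold change -0.36, SE 0.14, limma adjusted p = 0.274). Xrcc4, the scaffold of that ligase, had 1.83 and 3.09 RPKM in knockout and 1.98 and 1.96 RPKM in control, where knockout 2 alone stood high.

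**Figure D2:**
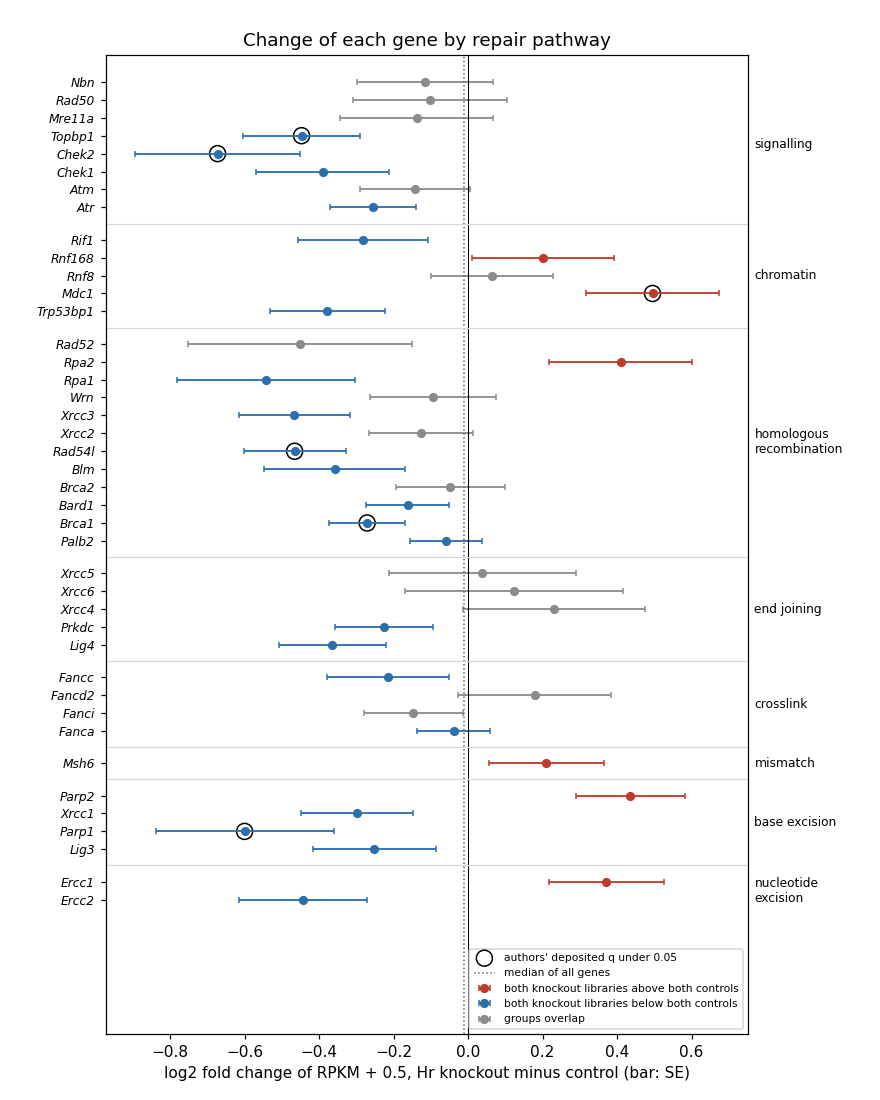
Log2 fold change of each gene, knockout minus control, on the log2(RPKM + 0.5) scale, with bars for the standard error; red marks genes with both knockout libraries above both controls, blue those with both below, grey those that overlap, rings a q-value under 0.05 in the authors' deposited table, and the dotted line the median of all genes. Values run from -0.67 for Chek2 to 0.49 for Mdc1, and signalling genes all lie left of 0 while end joining genes lie on both sides.

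Genes of crosslink repair, the Fanconi anaemia pathway, had a lower mean in 3 of 4 cases, with 0 limma calls. The groups were separated in 2, Fancc and Fanca, both lower, beside 26.2% of all genes separated lower. Fancc, a core complex subunit, had 1.83 and 1.76 RPKM in knockout and 2.02 and 2.31 RPKM in control (log2 fold change -0.22, SE 0.16, limma adjusted p = 0.529). Fancd2, the protein that the core complex ubiquitylates, had 0.854 and 0.882 RPKM in knockout, between the 0.505 and 0.954 RPKM of the controls. Its partner Fanci had 0.208 and 0.0845 RPKM in knockout and 0.217 and 0.208 RPKM in control, the low value resting on 8 reads. Fanca, another core subunit, had at most 13 reads a library, and its values in knockout 1 (0.0456 RPKM) and control 1 (0.0457 RPKM) differed by less than the worth of 1 read. The mismatch gene Msh6, which recognises mispaired bases, was much more abundant, with 12.5 and 11 RPKM in knockout and 9.91 and 10.2 RPKM in control (log2 fold change 0.21, SE 0.15, limma adjusted p = 0.520), but was lower when scaled by reads listed.

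The poly(ADP-ribose) polymerases, which flag single-strand breaks, differed in opposite directions. Parp1 (chromosome 1, 180568924 to 180601254) had 1.98 and 2.61 RPKM in knockout, against 3.05 and 4.49 RPKM in control, with means of 2.29 ± 0.449 RPKM in knockout and 3.77 ± 1.02 RPKM in control (SD, n = 2 each), a log2 fold change of -0.60 with SE 0.24, limma adjusted p = 0.275 and a q-value of 0.0465 in the authors' deposited table. Without control 2 the log2 fold change was -0.35. Parp2 (chromosome 14, 50807946 to 50821300), its relative and the most abundant of the 41 genes, had 19.0 and 21.3 RPKM in knockout, against 15.2 and 14.4 RPKM in control. Its log2 fold change was 0.43 with SE 0.15, limma adjusted p = 0.228 and a q-value of 0.125 in the authors' deposited table. Xrcc1, the scaffold they recruit, had 11.3 and 12.4 RPKM in knockout and 14.0 and 15.3 RPKM in control, and its partner ligase gene Lig3 had 2.03 and 1.80 RPKM in knockout and 2.46 and 2.29 RPKM in control. Neither passed limma (adjusted p = 0.360 for Xrcc1 and 0.466 for Lig3).

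Nucleotide excision repeated the split. Ercc1, the non-catalytic subunit of the nuclease that cuts beside bulky adducts, had 15.3 and 16.9 RPKM in knockout and 13.1 and 11.6 RPKM in control (log2 fold change 0.37, SE 0.15, limma adjusted p = 0.287). Ercc2, the helicase of the transcription factor TFIIH, had 0.984 and 0.701 RPKM in knockout and 1.23 and 1.40 RPKM in control (log2 fold change -0.44, SE 0.17, limma adjusted p = 0.267).

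Ratios within a library do not depend on how libraries are scaled, and were taken for 6 pairs chosen after their values were seen. Parp2 over Parp1 was 9.64 and 8.18 in knockout, against 4.99 and 3.20 in control. Rpa2 over Rpa1 was 4.41 and 3.36 in knockout, against 2.47 and 1.38 in control. Mdc1 over Trp53bp1 was 2.52 and 2.61 in knockout, against 1.31 and 0.979 in control, and Ercc1 over Ercc2 was 15.6 and 24.1 in knockout, against 10.7 and 8.28 in control. These 4 pairs join a gene that was higher to one that was lower in both knockout libraries, so the choice of pairs fixes that their ratios do not overlap, and the ratios are a description only. By contrast, Xrcc5 over Xrcc6 was 2.54 and 2.0 in knockout, around the 2.39 and 2.42 of the controls, and Nbn over Rad50 was 3.97 and 4.06 in knockout, between the 4.56 and 3.53 of the controls. With 2 libraries a group an exact permutation test can go no lower than a two-sided p of 0.333.

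**Figure D3:**
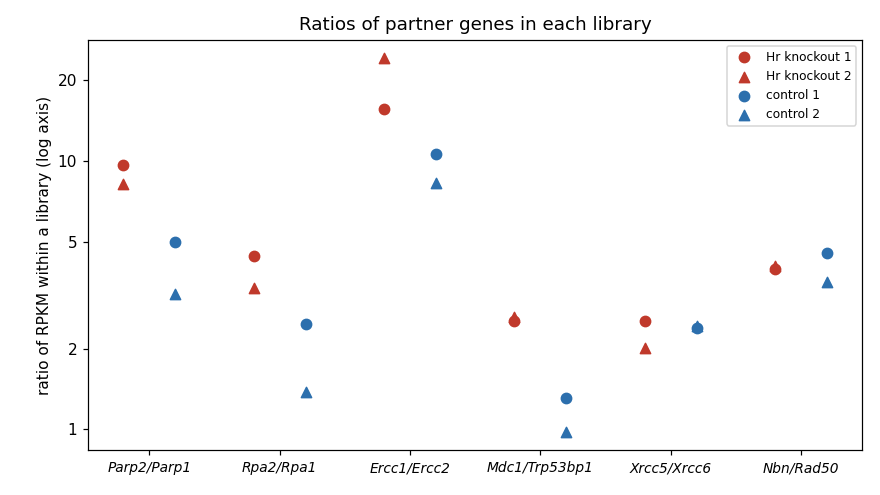
Ratio of RPKM within each library (log axis) for 6 pairs of genes, with red marks for knockout and blue marks for control libraries. Ratios of Parp2 to Parp1, Rpa2 to Rpa1, Ercc1 to Ercc2 and Mdc1 to Trp53bp1 are higher in both knockout libraries than in both controls, while those of Xrcc5 to Xrcc6 and Nbn to Rad50 overlap.

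Level and direction went together in the repair genes, and also in the table as a whole. The 41 genes were less abundant than the listed genes in general, with a median level of 1.75 RPKM, against 6.49 RPKM for all genes. Of the 15 genes with a mean under 1 RPKM, 14 were lower in knockout, and so were 1081 of the 1596 listed genes at that level. From 1 to 5 RPKM, 12 of 16 repair genes and 2165 of 3490 listed genes were lower. At 5 RPKM or more, 6 of 10 repair genes and 3815 of 6517 listed genes were higher. Groups were separated lower for 10 of the 15 repair genes under 1 RPKM, beside 36.3% of listed genes at that level. From 1 to 5 RPKM they were separated lower for 9 of 16, beside 33.4%. The authors' q-value was under 0.05 for 2 of the 15, both lower, beside 12.3% of listed genes lower at that level. From 1 to 5 RPKM it was so for 3 lower genes of 16, beside 4.56%. Spearman's correlation of mean level with log2 fold change, across genes that share the same libraries, was 0.24 over the 41 genes and 0.32 over all genes.

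**Figure D4:**
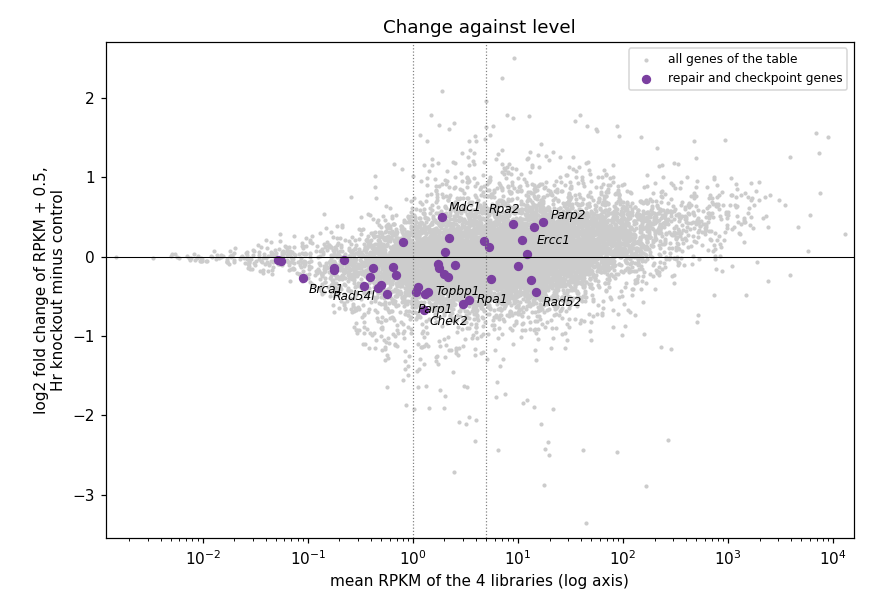
Log2 fold change, knockout minus control, against mean RPKM over the 4 libraries (log axis) for all listed genes (grey) and the 41 repair and checkpoint genes (purple); dotted lines mark 1 and 5 RPKM. The purple points below 1 RPKM lie almost all under 0, and those named at higher levels lie on both sides.

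Further genes of the same pathways, 151 on lists and 141 of them in the table, were not lower as a body. In mean, 67 were higher and 74 lower in knockout, the median log2 fold change was -0.02, and 0 passed limma over all genes. Groups were separated higher for 32 (22.7%) and lower for 45 (31.9%), beside 25.0% and 26.2% of all genes. Further recombination genes were separated lower in 15 and higher in 9 of 32, and further end joining genes lower in 2 and higher in 4 of 11. At an unadjusted limma p under 0.05, 17 of the 141 were higher (12.1%) and 15 lower (10.6%), beside 10.3% and 7.69% of all genes. By q-value under 0.05 in the authors' deposited table, higher genes numbered 5 (3.55%) and lower genes 7 (4.96%), beside 3.59% and 4.26% of all genes. Among those higher, H2afx, the histone variant that marks breaks, was listed at 76.3 and 98.7 RPKM in knockout and 54.2 and 47.9 RPKM in control. Nsmce1, a subunit of the SMC5/6 complex, had 73.1 and 86.4 RPKM in knockout and 46.1 and 40.1 RPKM in control. Faap24, a DNA-binding partner of the Fanconi core complex listed as C230052I12Rik, had 3.69 and 3.40 RPKM in knockout and 1.89 and 2.0 RPKM in control. Mus81, a nuclease for branched DNA, had 7.49 and 8.40 RPKM in knockout and 4.34 and 5.32 RPKM in control. Apex2, an endonuclease for sites without a base, had 2.78 and 3.40 RPKM in knockout and 1.99 and 1.82 RPKM in control. In each of these genes both knockout libraries lay above both controls, and in each of the lower genes named next they lay below. Neil3, a glycosylase of replicating cells, had 0.0512 and 0.0920 RPKM in knockout and 0.505 and 1.11 RPKM in control. Fignl1, which acts in recombination, had 0.040 and 0.0503 RPKM in knockout and 0.410 and 0.149 RPKM in control. Brip1, the helicase partner of BRCA1, had 0.0675 and 0.00817 RPKM in knockout and 0.208 and 0.135 RPKM in control. These scarce genes rest on few reads, as the 13 and 1 reads of Brip1 in knockout against 36 and 21 in control show. Lig1, the ligase of DNA replication, had 1.53 and 2.07 RPKM in knockout and 2.73 and 3.18 RPKM in control, and Cdc25b, a phosphatase that starts mitosis, had 2.66 and 3.12 RPKM in knockout and 4.65 and 6.19 RPKM in control.

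All 26 genes on a list of G2 phase and mitosis, which mark cycling cells, had a lower mean in knockout, 25 of them with separated groups (26.2% of all genes), and their median log2 fold change was -0.98. In the authors' deposited table, 23 of the 26 had a q-value under 0.05 and were lower (88.5%), beside 4.26% of all genes. They summed to 14.4 and 12.2 RPKM in knockout and to 29.9 and 54.0 RPKM in control. Of 30 S-phase genes, 21 were lower and 9 higher, with a median of -0.26, and a q-value under 0.05 was given by the authors' deposited table to 8 of the lower and 4 of the higher genes. Their summed level was 277 and 274 RPKM in knockout and 210 and 189 RPKM in control. None of these genes passed limma over all genes, and their part in the lower levels of Brca1, Rad54l, Chek2 and Topbp1 was not tested. Chek2 and Rad54l were highest in control 2, and Brca1 and Topbp1 in control 1. Control 2 had the highest sum of mitotic genes and also of muscle fibre markers (847 RPKM). With 2 controls these orders are a description only.

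**Figure D5:**
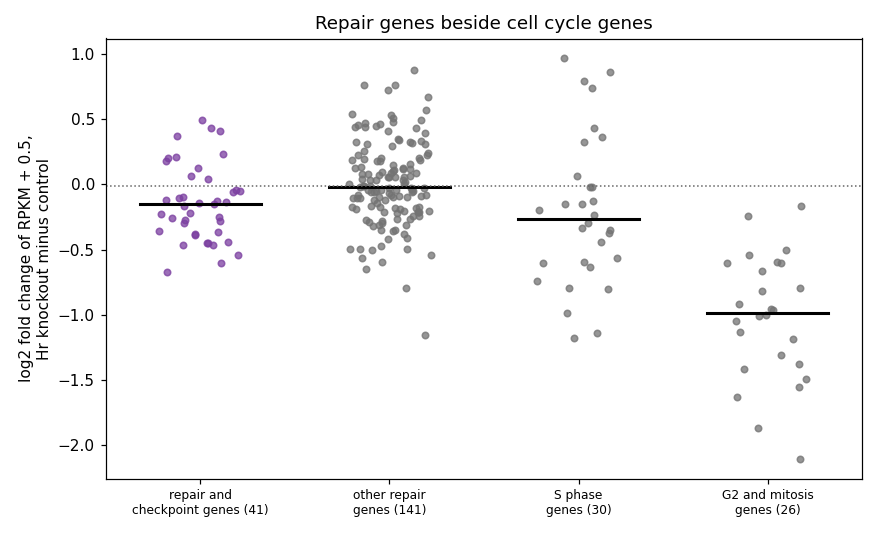
Log2 fold change, knockout minus control, of the 41 repair and checkpoint genes, 141 other repair genes, 30 S-phase genes and 26 genes of G2 phase and mitosis; each point is a gene, bars are medians and the dotted line is the median of all genes. Medians are -0.15, -0.02, -0.26 and -0.98 in that order.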

How the data were processed

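RNA-seq of 4 libraries, 2 of each genotype, was analysed from a table of 11603 genes. Per the submitters' processing notes, reads were handled by the authors with STAR, Trim Galore, edgeR and Subread's featureCounts on mm10 (GRCm38), with versions and settings unstated in the sources used here. The header does not name the unit of the values, which the authors had divided by exon length and library size and which behaved as RPKM. Multiplied by exon length, 100% of them came out as whole reads within 0.01 reads. Reads per gene were recovered this way. The library sizes the authors divided by were 75.7% and 75.5% of the listed reads in knockout and 85.9% and 92.4% in control. Columns beginning with Ct were matched to control libraries and those beginning with Fl to knockout libraries, a match that rests on Ct naming the controls. A q-value for each gene comes from the authors' deposited table, with its model and p-value adjustment unstated there. Exon length, in bases, is as deposited by the authors.

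The test was limma 3.58.1 with a mean-variance trend in R 4.3.3 on log2(RPKM + 0.5), over all genes, with a single term for genotype and a Benjamini-Hochberg threshold of 0.05. Fold values are ratios of mean RPKM. The fit was tested on simulated data, with changes only in genes of at least 1 RPKM. Those changes were larger than nearly all of the 41 genes showed. The simulation therefore does not say whether smaller changes or changes in scarcer genes would be called. Genes and lists were chosen with earlier results of these data known. All 41 genes are given. Statistics are given for those with a q-value or limma p under 0.05, for the most abundant of each pathway and for others chosen after their values were seen. Other repair genes named have a q-value under 0.05, at most 4 a pathway, and 2 such genes are not reported here. Alternatives were other pseudocounts (0.1 and 1), a filter at a mean of 1 RPKM, other scalings, libraries left out, a replicate block and limma-voom. Promoter windows came from RefSeq (GRCm38.p6) and matched 34 of 41 genes.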

Additional observations from a re-analysis of the deposited data

How the results depend on the processing

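None of the 41 genes was called by limma in either direction under any of the 11 alternatives, with a lowest adjusted p of 0.0557. Over all genes, 0 were called higher and 1 lower, against 591 and 413 with a replicate block and 3 and 8 with limma-voom on recovered reads, and 0 to 1 higher and 0 lower when a library was left out, where the lone library is assumed to vary like the other group. The replicate numbers are only numbers. Differences between replicates 1 and 2 in the knockout and control groups correlated at 0.39 over all genes, but the labels do not say that a number marks a shared mouse or day. The median log2 fold change of the 41 genes was -0.15. It was -0.27 with a pseudocount of 0.1, -0.32 with limma-voom, which weighs scarce genes without that pseudocount, -0.29 with scaling by reads listed, and -0.23 to -0.14 when a library was left out. Counting genes by direction of the means or by separated groups with a library left out was added after seeing the data. It gave 8 to 17 genes with a higher mean, beside 11, and 24 to 33 with a lower mean, beside 30. Separated genes numbered 7 to 11 higher, beside 6, and 23 to 29 lower, beside 21, since groups separate more easily with 1 library fewer.

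Of the 41 genes, 28 kept their sign under the alternatives that gave a value and 13 did not. With scaling by reads listed, Rnf8 (-0.12), Rnf168 (-0.0146), Msh6 (-0.0169), Xrcc5 (-0.19) and Xrcc6 (-0.0926) turned. Leaving out a library gave Rad50 0.04 without knockout 1 and 0.0605 without control 2, and Nbn -0.30 to 0.0672. It gave Xrcc5 -0.28 to 0.36, with -0.11 without knockout 2, Xrcc6 -0.17 to 0.42 and Fancd2 -0.0878 to 0.44. Atm, Mre11a, Rnf8, Brca2, Wrn and Xrcc4 also turned under at least 1 alternative, with values reaching 0.00919, 0.0448, -0.12, 0.0998, 0.0128 and -0.0821 in that order. The cause was not tested. Low counts limit what can be seen, since 7 of the 41 genes had under 20 reads in a library.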

Other observations

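CCAAT boxes (CCAAT or ATTGG) were found in 20 of the 36 promoter windows of the repair genes (55.6%), against 37.4% of the 11927 windows of genes in the table, and the CHR element (TTTGAA or TTCAAA) in 2 of the 36, against 11.8%. Xrcc3, a recombination gene that was lower in both knockout libraries, held 6 CCAAT boxes in its window, while the windows of Topbp1, Parp1 and Parp2 held none.

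In the knockout group 25 of the 41 genes were higher in replicate 2 than in replicate 1 (61.0%), and in the control group 27 (65.9%), beside 52.2% and 50.6% of all listed genes.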
